A study of Mus musculus with 10 samples.

Results

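The nuclear-encoded subunits of the respiratory chain were examined in cardiac ECs of mice on a control or a ketogenic diet. Members were all protein-coding genes whose symbol starts with Nduf, Uqcr, Cox4i, Cox5, Cox6, Cox7, Cox8 or Atp5, together with Sdha, Sdhb, Sdhc, Sdhd and Cyc1. There were 94 such genes among the 46983 genes of the count table, and 11 pseudogenes with the same name stems were left out. They comprised 36 complex I subunits, 8 assembly factors of complex I (Ndufaf genes), 4 genes of complex II, 9 of complex III, 20 of complex IV and 17 of complex V. Ndufa4 and Ndufa4l2 were placed with complex IV.

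The cells came from hearts of male wild-type C57BL/6J mice, 5 on each diet, which entered the diets at 8 weeks of age and ate the irradiated control or ketogenic (high-fat, very low-carbohydrate) food for 14 days. Cells carrying CD31, an adhesion molecule of endothelial cells that platelets and some leukocytes also carry, were pulled from digested hearts with antibody-coated magnetic beads. Each library held the RNA of 1 mouse and was read as single reads of 50 bases. Nothing in the labels ties a control mouse to a ketogenic mouse. The paper describes the control mice as littermates, without saying which mice belong together.

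The respiratory chain sits in the inner mitochondrial membrane. Complexes I and II take electrons from NADH and succinate and hand them to coenzyme Q, complex III passes them to cytochrome c, and complex IV passes them to oxygen. Complexes I, III and IV pump protons, and complex V (ATP synthase) uses the proton gradient to make ATP. Capillary ECs are known to draw much of their ATP from glycolysis, whereas cardiomyocytes are packed with mitochondria and use muscle forms of several complex IV subunits.

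Libraries held 10885154 to 12710861 reads on genes, and the members took 0.695% to 0.751% of them. All 12 endothelial markers were tested and none was called, with a summed level of 5295 to 5690 reads scaled to library size (CPM) in control and 5174 to 5855 in ketogenic mice. Raw counts of several were nearly fixed, with 6770 to 7020 reads for Pecam1 and 7356 to 7571 for Cdh5, while Kdr ranged from 7281 to 9501. Nearly fixed counts could hardly show a difference in endothelial content. Macrophage markers summed to 724 CPM in control mouse 1 and to 174 to 325 CPM in the other 9 mice, so that this library stood apart. The 4 platelet markers had a median log2 fold change of -0.75 (ketogenic over control) and all had an unadjusted p under 0.05, none of them called, with sums of 404 to 654 CPM in control and 187 to 481 CPM in ketogenic mice. Of 8 macrophage markers 7 had a negative log2 fold change, 4 with an unadjusted p under 0.05 and none called. Of 6 lymphocyte markers 1, the B cell gene Cd79a, was called lower (edgeR, log2 fold change -0.46, adjusted p = 0.0221). The part of these cells in the members' values was not tested, beyond a fit with the macrophage score, which called no member. The 16 cardiomyocyte markers summed to 819 to 1009 CPM in control mice and to 935 to 1311 CPM in ketogenic mice, of which 4 lay above every control mouse. None of these 16 was at 0 in any mouse. One of them, Csrp3, was called higher on the ketogenic diet (edgeR, adjusted p = 0.0434), and 11 had an unadjusted p under 0.05, all higher. Of 5 adipocyte markers 4 had fewer than 10 reads in every mouse. The other, Cidea, measured 10.4 ± 3.41 normalized counts on control and 22.1 ± 11.3 on ketogenic diet (SD, n = 5). Its log2 fold change was 1.08 (edgeR, adjusted p = 0.164), and the part of adipocytes in the members' values was not tested.

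Most respiratory chain genes had nearly the same normalized read counts on both diets. Of the 94 members, 92 had enough reads to be tested, and none passed an adjusted p of 0.05 in edgeR's quasi-likelihood test with Benjamini-Hochberg adjustment over all genes, against 213 of 15949 tested genes (1.34%). An unadjusted p under 0.05 was found for 8 of the 92 members (8.70%), each of them higher on the ketogenic diet, and for 17.8% of all tested genes in either direction. The median log2 fold change (ketogenic over control) was -0.01 over the members and -0.01 over all tested genes. For 74 of the 92 members the 95% confidence interval of the log2 fold change lay within 0.25 of 0 on both sides, as it did for 30.5% of all tested genes. DESeq2 called 2 members, Cox7a1 and Cox8b, both higher, against 5.16% of the genes it tested.

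**Figure D1:**
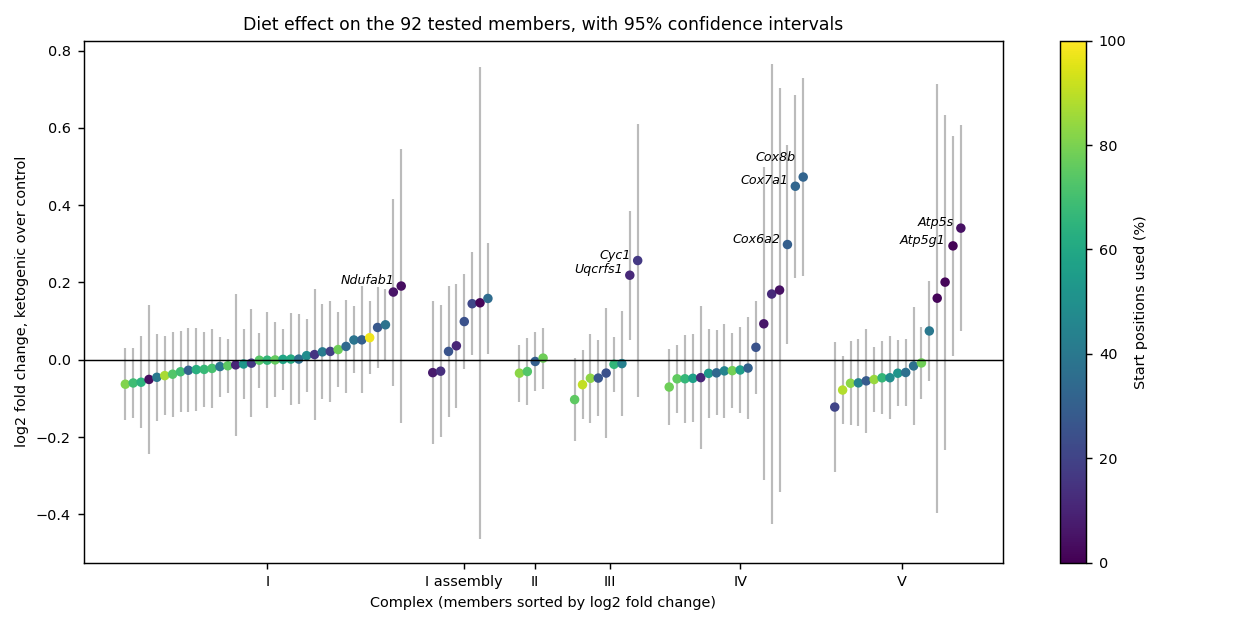
Log2 fold change (ketogenic over control) of the 92 tested members, with 95% confidence intervals as vertical lines, sorted within each complex. Colour gives the share of possible read start positions that the gene's reads would fill. The muscle isoforms Cox8b, Cox7a1 and Cox6a2 stand highest in complex IV, at 0.47, 0.45 and 0.30.

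Complex I read counts lay close to no difference. The median log2 fold change of its 36 subunits was 0.00, with a range from -0.06 to 0.19, and 34 of the 36 intervals lay within 0.25 of 0. Per kilobase, Ndufb9 was the most abundant subunit, at 141 RPKM (reads scaled to gene length and library size, averaged over the 10 mice), and Ndufab1 the least, at 2.39 RPKM. RPKM rests on the length of the whole gene model, which can far exceed that of the main transcript, and the most abundant members are near a ceiling of counts that is described with the raw counts, so the order of abundant members is uncertain. The flavoprotein Ndufv1, which takes the electrons from NADH, measured 2496 ± 48.3 normalized counts on control and 2470 ± 79.8 on ketogenic diet (SD, n = 5). Its log2 fold change was -0.02 with a 95% confidence interval of -0.08 to 0.05. Other core subunits of the electron path had log2 fold changes of 0.05 for Ndufv2, -0.02 for Ndufs1, 0.01 for Ndufs3, -0.06 for Ndufs7 and -0.02 for Ndufs8. The outermost fold changes were those of Ndufab1 (acyl carrier protein, 0.19) and Ndufb4 (0.18) at the upper end and of Ndufb10 (-0.06) and Ndufs7 at the lower.

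The 8 Ndufaf genes, which encode proteins that help to build complex I and do not stay in it, had a median log2 fold change of 0.07, and 6 of the 8 were above 0. Ndufaf2 measured 448 ± 25.6 normalized counts on control and 500.1 ± 30.7 on ketogenic diet (SD, n = 5), a log2 fold change of 0.16 ± 0.07 (SE), with an edgeR adjusted p of 0.231. Ndufaf7 had a log2 fold change of 0.14 ± 0.06 (SE, adjusted p = 0.239). Normalized counts of both overlapped between the diets. The gene span of Ndufaf2 overlaps that of Smim15 on the other strand, and the kit does not mark strand. Reads could not be told apart where exons of both overlap, which was not examined. Gene spans of 38 members overlap another gene. The lowest were Ndufaf4 (-0.03) and Ndufaf5 (-0.03). Ndufaf6 had only 0.737 RPKM and a log2 fold change of 0.15 with an interval from -0.46 to 0.76.

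Complex II, the succinate dehydrogenase that is also an enzyme of the TCA cycle, had log2 fold changes from -0.03 to 0.00 in all 4 genes. Sdha, the flavoprotein, measured 4995, 4584, 4855, 5011 and 4809 normalized counts in control mice 1 to 5 and 4668, 4878, 4900, 4736 and 4497 in ketogenic mice 1 to 5. The values of the diets lay within one another, with a log2 fold change of -0.03 ± 0.03 (SE). The iron-sulfur subunit Sdhb had a log2 fold change of -0.03, and the membrane anchors Sdhc and Sdhd had 0.00 and 0.00. All 4 intervals lay within 0.25 of 0. By gene-model length Sdhd was the most abundant at 128 RPKM and Sdhc the least at 40.7 RPKM, whereas on main transcripts Sdha used 82.5% of start positions and Sdhd 77.9%.

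In complex III, 7 of 9 genes had slightly lower normalized counts on the ketogenic diet and 2 had higher ones, with a median of -0.03. With log2 library total as a covariate, an alternative chosen after seeing the data, the median was 0.01. The 2 higher ones encode the catalytic subunits of the complex that the nucleus supplies. Uqcrfs1, the Rieske iron-sulfur protein, measured 296, 254, 318, 302 and 278 normalized counts in control mice 1 to 5 and 331, 338, 358, 319.7 and 337 in ketogenic mice 1 to 5. Every ketogenic mouse lay above every control mouse, which held for 2 of the 92 members (Cox7a1 being the other) and for 2.4% of all tested genes. No member had every ketogenic mouse below every control mouse, against 1.94% of tested genes. Its log2 fold change was 0.22 ± 0.08 (SE), with an edgeR adjusted p of 0.167. Cyc1, the haem protein that hands electrons to cytochrome c, had a log2 fold change of 0.26 ± 0.16 (SE, adjusted p = 0.434). Uqcrh, the hinge protein, had the lowest value of the complex at -0.10 ± 0.05 (adjusted p = 0.303), and Uqcrc1, a core protein, followed at -0.06. By gene-model length Uqcrc2 was the most abundant gene of the complex at 49.5 RPKM, whereas on main transcripts Uqcrc1 used 90.7% of start positions and Uqcrc2 65.9%.

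Cyc1 varied between mice far more than its neighbours in the complex. It measured 409, 586, 432, 466 and 412 normalized counts in control mice 1 to 5 and 722, 679.6, 463, 412 and 482 in ketogenic mice 1 to 5. Ketogenic mice 1 and 2 were highest, control mouse 2 came next, and the remaining mice of both diets lay together. Cox5a of complex IV and Ndufab1 of complex I were high in the same mice. Cox5a, a subunit that faces the matrix, reached 259.5 and 216 normalized counts in ketogenic mice 1 and 2 and fell to 72.9 in ketogenic mouse 4. Ndufab1 reached 318 and 336 in ketogenic mice 1 and 2, against 192 to 290 in control mice. Over the 10 mice, log2 normalized counts of Cyc1 correlated with those of Ndufab1 at r = 0.96 and with those of Cox5a at r = 0.82, which is given as a description of genes picked for their spread. The raw counts of Cyc1 had a variance within diets of 24.6 times their mean, the highest ratio of all members. With a score of cardiomyocyte markers as covariate, log2 fold changes were 0.595 for Cyc1, 0.60 for Cox5a and 0.44 for Ndufab1. Without it they were 0.26, 0.17 and 0.19. None was called with this covariate (Cyc1, edgeR unadjusted p = 0.00768, adjusted p = 0.251).

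**Figure D2:**
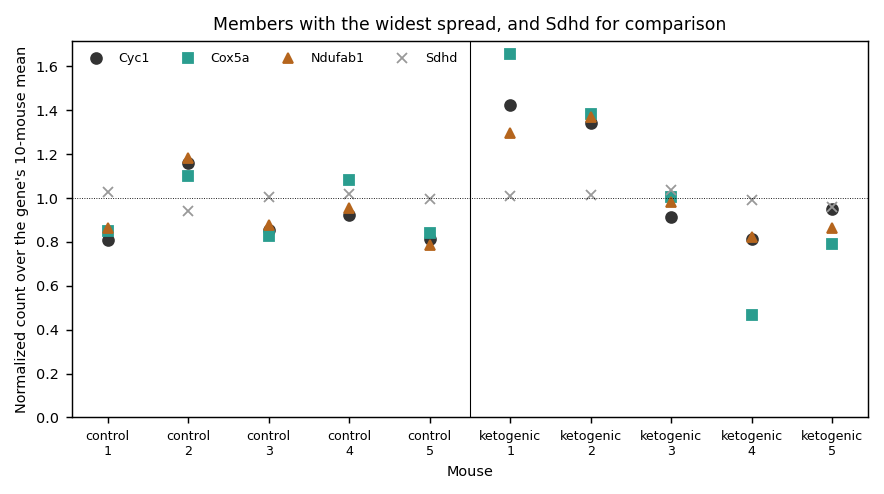
Normalized count of Cyc1, Cox5a and Ndufab1 in each mouse, divided by the gene's mean over the 10 mice, with Sdhd for comparison. Ketogenic mice 1 and 2 and control mouse 2 are above 1 for each of these 3 genes, while Sdhd stays near 1 throughout.

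Complex IV held the members with the largest differences. Several of its subunits come in tissue forms, and in heart and skeletal muscle Cox6a2, Cox7a1 and Cox8b replace Cox6a1, Cox7a2 and Cox8a. The 3 muscle isoforms were the highest of the 18 tested complex IV genes, with log2 fold changes of 0.47 (Cox8b), 0.45 (Cox7a1) and 0.30 (Cox6a2). Without them, the median of the other 15 was -0.03, with a range from -0.07 to 0.18. In bulk samples, more cells of a type and more RNA per cell cannot be told apart.

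Cox7a1 measured 192, 180.2, 239, 237 and 236 normalized counts in control mice 1 to 5 and 265, 272, 342, 293 and 309 in ketogenic mice 1 to 5. No ketogenic mouse reached down to the control range. The means were 217 ± 28.4 and 296 ± 30.7 (SD, n = 5), a log2 fold change of 0.45 ± 0.11 (SE), with an unadjusted p of 0.00137 and an adjusted p of 0.0658 in edgeR. The same gene had an adjusted p of 0.00520 in DESeq2 and of 0.0363 in limma on log2(RPKM + 1), and was thus called by both. Over fits that left out 1 mouse at a time, the adjusted p in edgeR ranged from 0.0523 to 0.133.

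Cox8b measured 175, 158, 235, 185 and 200.2 normalized counts in control mice 1 to 5 and 226, 243, 294, 287 and 274 in ketogenic mice 1 to 5. Only control mouse 3 lay within the ketogenic range. The log2 fold change was 0.47 ± 0.12 (SE), with an adjusted p of 0.0713 in edgeR, 0.00733 in DESeq2 and 0.0465 in limma. Cox6a2 measured 318, 312, 448, 344 and 390.2 in control mice 1 to 5 and 362, 469, 513, 459 and 426 in ketogenic mice 1 to 5. Control mice 3 and 5 lay within the ketogenic range, and ketogenic mice 1 and 5 within the control range. The log2 fold change was 0.30 ± 0.12 (SE), with an adjusted p of 0.211 in edgeR. The gene span of Cox6a2 overlaps that of Itgad, an integrin gene, on the other strand. Whether their exons overlap, where reads could not be told apart, was not examined.

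Read counts of the ubiquitous partners did not follow. Cox7a2 measured 719 ± 30.1 normalized counts on control and 701 ± 34.1 on ketogenic diet (SD, n = 5), with a log2 fold change of -0.04 and an interval from -0.15 to 0.08. Cox8a had a log2 fold change of -0.03 (interval -0.15 to 0.09) and Cox6a1 of -0.05 (interval -0.16 to 0.06). All 3 intervals lay within 0.25 of 0. Raw counts of these partners were nearly fixed over all libraries, at 691 to 726 for Cox7a2, 481 to 521 for Cox8a and 752 to 776 for Cox6a1. Such counts could hardly show a difference, so whether the partners' transcripts changed was not tested.

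**Figure D3:**
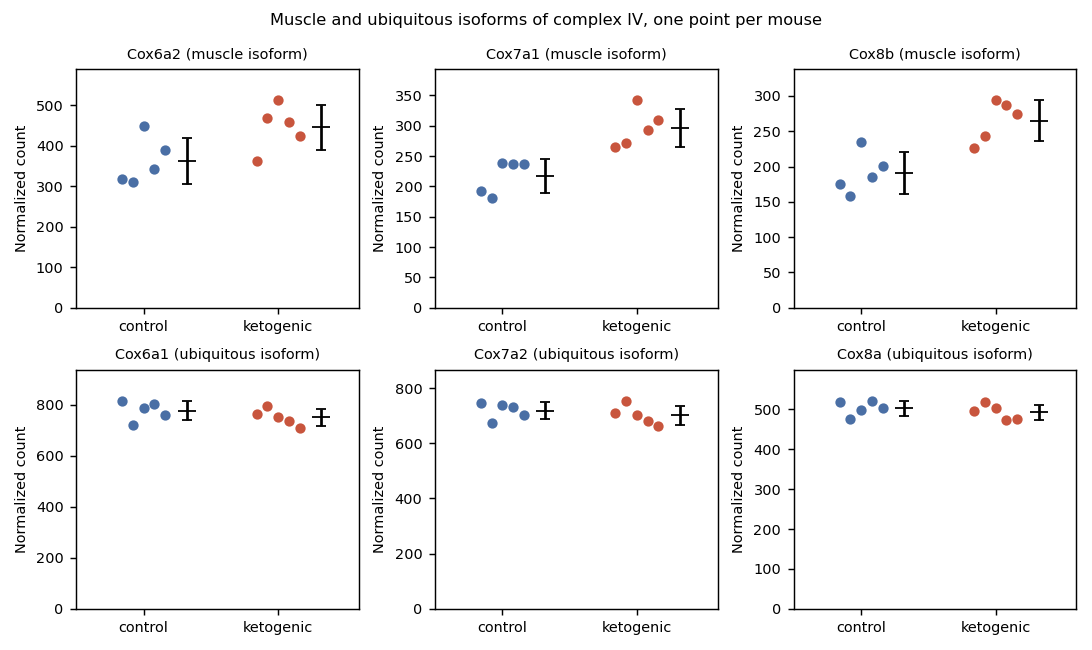
Normalized counts of the muscle isoforms (top) and their ubiquitous partners (bottom) in each mouse, with mean and SD beside the points. Cox7a1 does not overlap between the diets (control up to 239, ketogenic from 265), while Cox6a1, Cox7a2 and Cox8a do.

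The share of the muscle isoform within its pair was computed per kilobase of gene model in each mouse, so that the scaling to library size drops out. Raw counts of the partner Cox7a2 stayed at 691 to 726 over all libraries, so the share can still move with depth. For the Cox7a pair it was 34.8%, 35.7%, 40.1%, 40.2% and 41.0% in control mice 1 to 5 and 43.7%, 42.8%, 50.1%, 47.1% and 49.2% in ketogenic mice 1 to 5. All ketogenic mice lay above all control mice, and the difference of 8.22 percentage points had p = 0.00794 in a two-sided exact permutation test, the smallest that 5 against 5 mice can give, and 0.0397 after adjustment over 5 pairs. Without control mouse 1 or control mouse 2 the adjusted p was 0.0794 in each case. On residuals from a line on log2 library total, an alternative chosen after seeing the data, the difference was 6.02 points (exact permutation, adjusted p = 0.0397). The line was fitted over all mice without diet, so it can take up part of a diet difference. After correction for start positions the difference was 10.1 points (exact permutation, adjusted p = 0.0397). The Cox8b share was 36.2% ± 3.39 on control and 44.6% ± 3.31 on ketogenic diet (SD, n = 5, exact permutation p = 0.0238, adjusted 0.0595). The Cox6a2 share was 44.8% ± 3.78 and 50.9% ± 3.33 (SD, n = 5, exact permutation p = 0.0397, adjusted 0.0661). The adjusted p of these 2 pairs fell below 0.05 without control mouse 3 or without ketogenic mouse 1 (0.0198 and 0.0397 for Cox8b, 0.0397 in both cases for Cox6a2). The pairs were chosen with earlier results of these data known, and the shares use the same reads as the fold changes above.

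The level of cardiomyocyte markers differed between the same mice. The lowest shares of Cox7a1 and Cox8b were those of control mice 1 and 2, whose markers summed to 832 and 819 CPM, and the highest Cox7a1 share was that of ketogenic mouse 3, whose markers reached 1311 CPM. The order was not the same throughout. Ketogenic mouse 1 had 935 CPM and a Cox7a1 share of 43.7%, while control mouse 3 had 1009 CPM and 40.1%. Ketogenic mouse 5 had 1074 CPM and 49.2%, while ketogenic mouse 2 had 1150 CPM and 42.8%. Ketogenic means exceeded control means for 14 of the 16 markers, and their median log2 fold change was 0.34. Per 1000 reads on cardiomyocyte markers, Cox7a1 had 20.7 ± 1.49 reads on control and 22.4 ± 2.15 on ketogenic diet, Cox8b 18.2 ± 1.34 and 19.99 ± 1.46, and Cox6a2 34.6 ± 2.79 and 33.6 ± 1.22 (SD, n = 5). Single markers had log2 fold changes from -0.49 (Nppa) to 1.03 (Ttn). Myl3 (0.24) and Tnni3 (0.17) each used 52.3% of their start positions, against 0.47% for Ttn. The ratio to marker reads therefore depends on which markers weigh most. When the score of the cardiomyocyte markers entered the fit as a covariate, log2 fold changes were 0.22 for Cox7a1, 0.18 for Cox8b and -0.05 for Cox6a2. For the Cox7a1 share, residuals were taken from a line on this score, fitted over all mice without diet. They differed by 2.35 percentage points between the diets (exact permutation on residuals, p = 0.270, adjusted 0.463). Such a line can take up part of a diet difference. The part of cardiomyocyte RNA in the isoform difference was not tested beyond these fits.

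**Figure D4:**
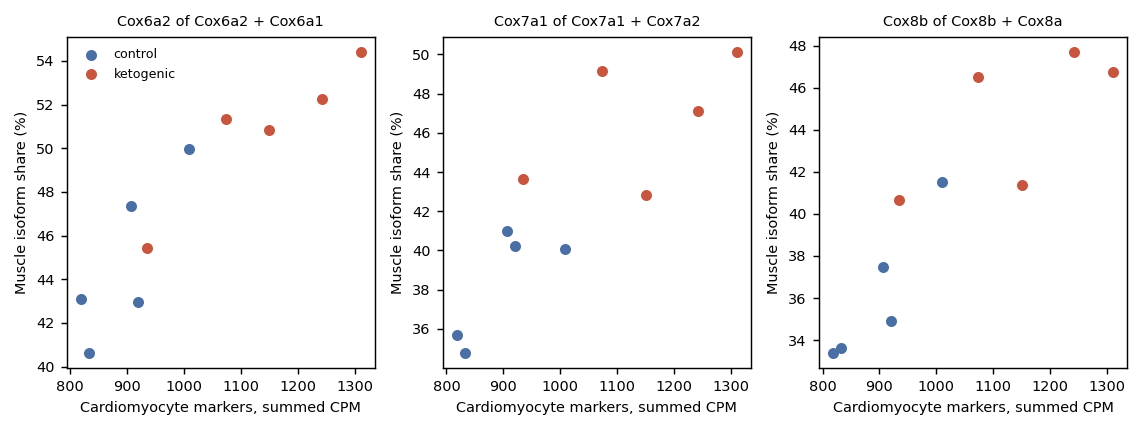
Share of the muscle isoform in its pair (percent of reads per kilobase) against the summed CPM of 16 cardiomyocyte markers, 1 point per mouse. Ketogenic mouse 3, with 1311 CPM, has the highest Cox6a2 and Cox7a1 shares, and control mice 1 and 2, with 832 and 819 CPM, are among the lowest in each panel.

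The 250 bases before the RefSeq start (GRCm38.p6) of the Cox7a and Cox8 genes are shown because these pairs held the largest differences between partners. They are written 5′ to 3′ along the gene. Capitals mark, on either strand, the loose word CTANNNNTA that was searched for the muscle factor MEF2 and whose 4 middle bases are open. The windows are chr7:30183921-30184170 on the plus strand for Cox7a1, chr9:79759854-79760103 on the minus strand for Cox7a2, chr7:140900447-140900696 on the minus strand for Cox8b and chr19:7217617-7217866 on the minus strand for Cox8a.
Cox7a1: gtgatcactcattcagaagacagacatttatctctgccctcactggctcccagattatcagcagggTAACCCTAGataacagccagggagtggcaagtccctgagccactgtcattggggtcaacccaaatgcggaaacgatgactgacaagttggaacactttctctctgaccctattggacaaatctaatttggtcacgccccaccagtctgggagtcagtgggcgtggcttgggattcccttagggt
Cox7a2: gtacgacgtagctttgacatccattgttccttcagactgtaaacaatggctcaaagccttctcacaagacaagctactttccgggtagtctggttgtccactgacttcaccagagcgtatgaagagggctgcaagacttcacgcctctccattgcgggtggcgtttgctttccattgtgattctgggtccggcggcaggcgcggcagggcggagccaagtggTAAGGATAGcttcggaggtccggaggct
Cox8b: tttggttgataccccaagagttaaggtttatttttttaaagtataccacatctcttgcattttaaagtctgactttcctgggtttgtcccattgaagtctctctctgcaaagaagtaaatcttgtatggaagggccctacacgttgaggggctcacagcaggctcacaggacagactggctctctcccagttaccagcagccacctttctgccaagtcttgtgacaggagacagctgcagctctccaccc
Cox8a: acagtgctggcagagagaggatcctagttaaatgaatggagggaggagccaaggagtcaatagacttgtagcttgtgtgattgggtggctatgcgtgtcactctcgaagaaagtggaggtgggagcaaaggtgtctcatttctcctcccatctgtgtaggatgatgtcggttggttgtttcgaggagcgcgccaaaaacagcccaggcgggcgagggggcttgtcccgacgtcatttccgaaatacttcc
The muscle forms had 4 (Cox7a1) and 1 (Cox8b) CG dinucleotides in these windows and the ubiquitous forms 14 (Cox7a2) and 11 (Cox8a). The loose MEF2 word stood in the windows of both Cox7a genes and of neither Cox8 gene. With its middle bases open, it stood in 14.9% of the longer windows of tested genes, and a match does not show a MEF2 site.

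Promoter windows of 300 bases (250 before to 50 after the start) were at hand for 74 members, in 79 windows. On either strand, the NRF1 word GCGCATGC was in 15.2% of these windows and in 4.75% of 13970 windows of tested genes. The YY1 word AAGATGGC was in 12.7% and 4.07%, and the ERR word TCAAGGTCA in 2.53% and 0.265%, the former in Atp5g3 and Sdhd. The ETS word CCGGAAGT was in 6.33% and 7.40%, the MEF2 word in 17.7% and 14.9% and the TATA word TATAAA in 10.1% and 7.62%. Matches of the NRF1 word on both strands can overlap, as in Cox6a1, and a window was counted once for each word. NRF1, YY1 and ERR are known regulators of respiratory chain genes, and a match is a description of the sequence only.

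The Cox4 and Ndufa4 pairs each hold an isoform known for its rise under hypoxia. Per kilobase of gene model, Cox4i2 made up 72.2% ± 0.599 of the Cox4 pair on control and 72.5% ± 0.745 on ketogenic diet (SD, n = 5, exact permutation p = 0.5). Ndufa4l2 made up 86.5% ± 0.456 and 86.6% ± 0.0617 of its pair with Ndufa4 (exact permutation p = 0.468). On main transcripts the Cox4 order turned, with 78.0% of start positions used by Cox4i1 and 75.6% by Cox4i2, while Ndufa4l2 used 78.9% and Ndufa4 56.6%. The log2 fold changes were -0.05 for Cox4i2, -0.07 for Cox4i1, -0.03 for Ndufa4l2 and -0.05 for Ndufa4. Ndufa4l2 was the most abundant complex IV gene at 132 RPKM. Cox4i2 and Ndufa4l2 are known to be high in mural cells, whose 8 markers summed to 2518 to 2715 CPM in control and 2435 to 2694 CPM in ketogenic mice, and the part of such cells in these levels was not tested. Ndufa4l2 overlaps Shmt2 on the other strand. The testis forms Cox7b2, with 0 to 2 reads per mouse, and Cox8c, with 0 to 1, were not tested.

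Complex V had a median log2 fold change of -0.03, with 12 of 17 genes below 0. Genes of the catalytic head had slightly lower normalized counts, at -0.05 for Atp5a1 (alpha), -0.08 for Atp5b (beta, interval -0.17 to 0.01) and -0.05 for Atp5c1 (gamma). Raw counts were nearly fixed over all libraries, at 4139 to 4258 for Atp5a1 and 3345 to 3456 for Atp5b. With log2 library total as a covariate, chosen after seeing the data, Atp5a1 was at -0.0005 and Atp5b at -0.03. The median of the complex was then -0.0005. Atp5h, a stalk subunit, was the lowest at -0.12 ± 0.08 (SE, edgeR adjusted p = 0.431). The highest were Atp5s (coupling factor B), with 126 ± 12.5 and 159 ± 23.8 normalized counts (SD, n = 5) and a log2 fold change of 0.34 ± 0.12 (SE, adjusted p = 0.176), and Atp5g1, at 0.29 ± 0.13 (adjusted p = 0.261). Atp5g1, Atp5g2 and Atp5g3 encode the same mature ring subunit. Atp5g3 was at 31.3 RPKM and a log2 fold change of -0.01, while Atp5g1 and Atp5g2 were at 0.903 and 0.778 RPKM. By gene-model length Atp5mpl was the most abundant gene of the complex, at 115 RPKM. It used 40.1% of the start positions of its main transcript, against 88.3% for Atp5b.

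Summed over members, the differences between diets in complexes I, II, III and V were smaller than the SD between mice. Complex I subunits summed to 1628 ± 50.4 RPKM on control and 1635 ± 52.4 on ketogenic diet, complex II to 285 ± 8.08 and 285 ± 8.39, complex III to 290.0 ± 6.66 and 295 ± 15.3, complex IV to 858 ± 30.9 and 899 ± 31.5, and complex V to 441 ± 12.9 and 443 ± 13.8 (SD, n = 5). The muscle isoforms summed to 141 ± 19.7 and 189.5 ± 19.6 RPKM, and complex IV without them to 716 ± 21.5 and 709 ± 32.6 RPKM. The complex I assembly factors summed to 148.5 ± 4.61 and 161 ± 7.65 RPKM. Split by how many of their possible read start positions were in use, as set out with the raw counts, members at 50% or more summed to 2313 ± 75.0 and 2289 ± 75.9 RPKM and those under 50% to 1338 ± 34.7 and 1428 ± 45.2 RPKM (SD, n = 5).

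The raw counts of many members were almost the same in every library whatever its depth. Cox4i1 had 1186, 1202, 1195, 1191 and 1201 reads in control mice 1 to 5 and 1198, 1176, 1193, 1189 and 1202 in ketogenic mice 1 to 5, although library totals differed by up to 1825707 reads. Its variance within diets was 0.0611 times its mean, where independent sampling of reads would give 1 or more. Of the 92 tested members, 50 (54.3%) had a variance below the mean, against 8.42% of all tested genes. No gene in the table had more than 2.17 reads per base. Expressed as a share of the start positions on both strands of the main transcript, members used a median of 38.8%, up to 97.6% for Ndufb8, and 38 of 94 members (40.4%) used 50% or more, against 7.92% of tested genes. The 8 members with an unadjusted p under 0.05 all used 35.0% or less.

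If each start position and strand gives at most 1 read, a 1.5-fold difference in molecules would appear as 1.42-fold at 20% use, 1.29-fold at 50% and 1.14-fold at 80%. Whether duplicate reads were removed is not given in the sources used here. Near such a ceiling, normalized counts fall as the library total rises. The 38 members with 50% or more use had a median log2 fold change of -0.03, with 33 of them below 0, and with log2 library total as a covariate the median was 0.01. The 54 tested members with less use had a median of 0.02, with 32 above 0 and 22 below, and included all 8 members with an unadjusted p under 0.05. Undoing the ceiling by the formula for start positions left the median of all members at -0.01 with the gene model's length and 0.01 with the main transcript's length, and gave Cox7a1 0.58 (adjusted p = 0.0467) and 0.56 (adjusted p = 0.0495). Intervals near 0 for members with high use therefore refer to read counts. The limit is not confined to them. Of the 54 tested members with less use, 23 had a variance below the mean, such as Cox6c with 432 to 462 reads at 30.6% use.

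**Figure D5:**
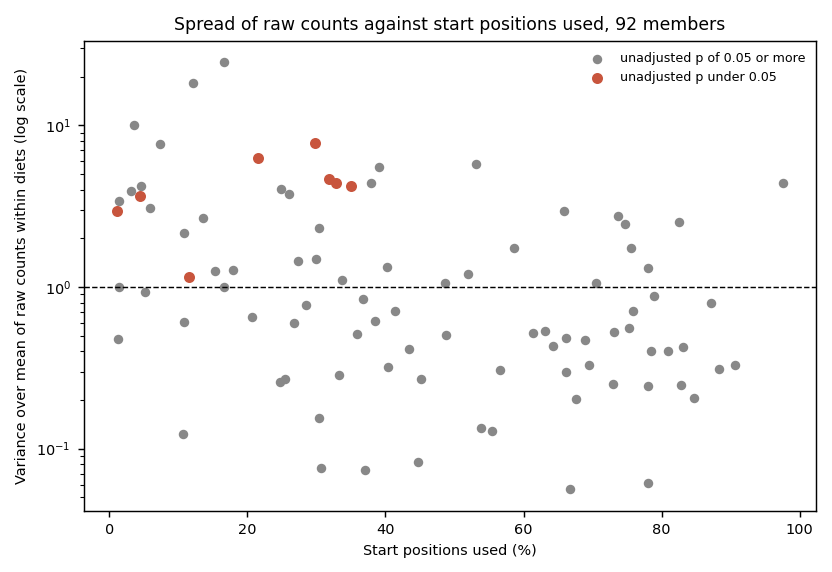
Variance over mean of raw counts within diets (log axis) against the share of start positions used, for the 92 tested members. The dashed line at 1 is what independent sampling gives. Members with an unadjusted p under 0.05 (red) lie at 35.0% or less, and 50 members lie below the line.

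Levels of some members are uncertain because other genes share their sequence. For 17 members at least 20% of the 50-base words of the main transcript also occur in other genes, with 87.4% for Atp5g2, 84.8% for Atp5l, 53.0% for Cox7c and 50.3% for Atp5o. Words of Cox7a1, Cox8b, Cox7a2 and Cox8a occur in no other gene.

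Other genes of the pathway gave no call either. The 13 subunits encoded by mitochondrial DNA, which complete complexes I, III, IV and V, included 7 with enough reads to test, none called and all 7 below 0, with a median of -0.06. Their raw counts were nearly fixed, with 1817 to 1830 reads for mt-Nd1 and 1427 to 1438 for mt-Co1 over the 10 mice. Among assembly factors, 0 of 9 of complex I outside the Ndufaf genes, 0 of 4 of complex II, 0 of 6 of complex III, 0 of 18 of complex IV and 0 of 4 of complex V were called. In these lists 1, 0, 1, 2 and 1 genes had an unadjusted p under 0.05, all higher on the ketogenic diet. Over all tested genes, 17.8% had such a p in either direction. The highest was Tmem70, an assembly factor of complex V, with 109 ± 9.66 and 153 ± 21.2 normalized counts (SD, n = 5), a log2 fold change of 0.48 ± 0.12 (SE) and an edgeR adjusted p of 0.0698. It was singled out after its value was seen. Of 13 genes of coenzyme Q synthesis none was called, and Coq3, Coq4 and Coq7 had an unadjusted p under 0.05, all higher. Of 4 electron carriers and transfer flavoproteins none was called.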

How the data were processed

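Cardiac ECs of 5 control and 5 ketogenic mice were isolated with CD31 antibodies on magnetic beads, and libraries were made with SMART-Seq v4 from 10 ng of RNA. The authors deposited raw counts of reads per gene and RPKM values, that is, the counts scaled to gene length and library size. The submitters' processing notes name bcl2fastq 2.17.1.14, STAR 2.3, HTSeq 0.6.0 and the mm10 genome, and duplicate removal is not given in the sources used here. Groups came from the labels. No label says how the mice were housed, so p-values measure the spread between these mice. No 2 libraries agreed within sampling noise.

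Symbols and positions were taken from GENCODE M21 (GRCm38). Of 46983 identifiers 46488 matched without regard to version and 37902 with the same version (59 of the 94 members). Counts were tested with edgeR 4.0.16 (TMM, filterByExpr, quasi-likelihood F-test) in R 4.3.3, with Benjamini-Hochberg adjustment over 15949 genes and a threshold of 0.05. The count test was checked on simulated data, where edgeR recovered 180 of 200 changed genes with 12 false calls among 15943 genes. Recovery of differences as small as those of the members, or in genes with nearly fixed counts, was not tested. Standard errors are the log2 fold change over the square root of F. Alternatives used DESeq2 1.42.0, limma 3.58.1 on log2(RPKM + 1) and log2(RPKM + 0.1), other scalings and filters, cell type scores as covariates, a correction for start positions, a replicate block and leaving out each mouse. Promoter windows are those of RefSeq on GRCm38.p6. Shares were tested by exact permutation over 252 regroupings.

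The members, gene lists and isoform pairs were chosen with earlier results of these data known. Genes named are the 2 highest and 2 lowest of each complex by log2 fold change, the most and least abundant per kilobase, both genes of each isoform pair, core subunits, members without overlap between diets and members with fewer than 10 reads in every mouse. Ndufaf7, Atp5g3, Cox5a, Ndufb8, Cox7c, Atp5l, Atp5o and Tmem70 were added after their values were seen. One gene that the rule names is not reported here.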

Additional observations from a re-analysis of the deposited data

Results flagged for a closer look

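Among 5 mice of a diet, a mouse was singled out where its gap to the nearest other mouse exceeded 0.710 of the range. Chance singles out about 1 in 20 groups, and 3 of the 108 groups examined were singled out. Ndufs3 measured 347.5 normalized counts in ketogenic mouse 3, against 309.8 to 321 in the other ketogenic mice. Atp5g1 measured 101 normalized counts in control mouse 2, against 89.5 to 91.1 in the other control mice. Atp5g2 measured 22.8 normalized counts in control mouse 3, against 16.1 to 17.2 in the other control mice.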

How the results depend on the processing

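No member was called by edgeR, and this held under 21 of 26 alternatives. DESeq2 and limma with either pseudocount called 2 members, and the correction for start positions called 1 with either length (the correction with the main transcript's length was added after seeing the data, as was the library total as covariate). Leaving out each mouse gave 0 calls throughout. Over all genes, 213 calls became 795 with DESeq2, 28, 36 and 111 to 141 with the cardiomyocyte, fibroblast and other cell type scores, 56 with the library total as covariate and 86 to 492 without single mice. Matching identifiers only with the same version left 59 members. The median over the muscle isoforms was 0.18 with the cardiomyocyte score as covariate, and with it Cox6a2 changed sign, to -0.0504. The Cox7a1 share difference was 2.35 percentage points on residuals from a line on that score fitted without diet, and the cause was not tested. Leaving out each mouse, it ranged from 7.33 to 9.16 points, that of Cox8b from 7.63 to 9.74 and that of Cox6a2 from 5.01 to 7.40. Of the medians by complex under all alternatives, no other moved by more than the spread between mice. Among 1092 values of named members, 90 changed sign where neither fit had an unadjusted p under 0.05.

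Over all genes with enough reads, mice with the same replicate number did not deviate together (correlations of -0.13 to 0.09). No mouse correlated best with its own number. Correlations over all genes cannot decide whether the numbers pair mice. The SE of the log2 fold change was 0.084 with a replicate block and 0.108 without it for Cox7a1. It was 0.092 and 0.118 for Cox8b, and 0.088 and 0.118 for Cox6a2. With the replicate block, 0 members and 113 genes were called, against 213 without it. Depth limits Cox7b2 and Cox8c, and start position use limits abundant members.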
